A study of Mus musculus with 4 samples.

Results

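Hemoglobin is carried in red cells, and 6 mouse genes of hemoglobin and red cells were looked up in the table of reads per gene: Hba-a1 and Hba-a2 (adult alpha globin), Hbb-b1 and Hbb-b2 (adult beta globin), Alas2 (the red cell enzyme of the first step of heme synthesis) and Bpgm (bisphosphoglycerate mutase). They were matched by Entrez gene identifier, and 3 of the 6 had a row among the 12700 genes of the table, namely Hba-a1 (15122), Alas2 (11656) and Bpgm (12183). Hba-a2, Hbb-b1 and Hbb-b2 were not analysed here. The group was chosen by the measured reads of Hba-a1, which went with those of Ids over the 4 libraries, so the levels and ratios of its members, and where they passed the calls made over all genes, are a description and support nothing.

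RNA was sequenced from brains of C57BL/6 mice aged 9 months, in which Ids, the gene of the lysosomal enzyme iduronate 2-sulfatase and the gene of Hunter syndrome, was disrupted (Ids-ko) or wild type (wt, littermates). CxH and CxWT were the cerebral cortex (Cx) of Ids-ko and wt mice, and MH and MWT were the area M, with midbrain, diencephalon and hippocampus, of Ids-ko and wt mice. Each of the 4 libraries held the pooled RNA of 7 mice, with 1 library per condition, so a ratio compares 2 libraries and not 2 genotypes, and no variation between mice or pools could be measured. Each brain was dissected into both areas, so by label the Cx and M libraries of a genotype came from the same 7 mice. Whether the brains were flushed of blood was not given in the sources used here, and in bulk tissue fewer red cells and less RNA per red cell cannot be told apart.

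Adult hemoglobin is a tetramer of alpha and beta globin chains, each holding a heme group made from glycine and succinyl-CoA by a pathway that Alas2 starts in red cell precursors. Bpgm makes 2,3-bisphosphoglycerate, which lowers the oxygen affinity of hemoglobin. Red cells in the circulation have no nucleus, and the youngest of them, the reticulocytes, still hold globin RNA, so globin reads in a piece of brain can come from the blood in its vessels. Alpha globin RNA has also been described in some neurons and glia.

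The libraries did not all go with their labels, and are named here by those labels. In RPM, reads scaled to an equal number of aligned reads, Ids had 135 in the library labelled CxH and 155 in the one labelled MWT, against 354 in CxWT and 368 in MH, so in M the label Ids-ko belonged to the library with more Ids reads. The 15 markers of cortical excitatory neurons summed to 4875 RPM in CxH and 4374 in MH, against 1033 in CxWT and 861 in MWT. The 9 measured markers of dopamine neurons, which lie in the midbrain, summed to 95.1 RPM in CxH and 94.1 in MH, where 1 of them was at 0, against 318 in CxWT and 336 in MWT. Of these 9, 7 were lower in CxH than in CxWT and in MH than in MWT, and 2, Nr4a2 and Drd2, were higher in both. Of the 15 cortical markers, 14 were higher in both and 1, Rasgrf2, was lower. By these markers CxH resembled MH, and CxWT resembled MWT, where the labels pair CxH with CxWT. The reads on genes ran from 16380080 in MWT to 23475080 in CxH, and the floor of 3 reads lay between 0.0779 and 0.104 RPM.

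The alpha globin copies were nearly alike in sequence, which limits what a count of Hba-a1 can tell. On the NCBI37/mm9 genome, with the genes of GENCODE vM1, Hba-a1 lies on the plus strand at chr11:32183511-32184465 in 3 exons of 699 bases in all, and Hba-a2 follows it at chr11:32196489-32197301. Their coding sequences of 429 bases differ at 1 base, C381T, counted from 1 at the A of ATG, with the base of Hba-a1 first. The last 109 coding bases of both, bases 321 to 429, are shown because they hold this difference, which is the capital letter and the last base of its codon.
Hba-a1: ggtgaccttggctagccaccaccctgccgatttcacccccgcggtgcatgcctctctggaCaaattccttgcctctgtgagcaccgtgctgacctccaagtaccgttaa
Hba-a2: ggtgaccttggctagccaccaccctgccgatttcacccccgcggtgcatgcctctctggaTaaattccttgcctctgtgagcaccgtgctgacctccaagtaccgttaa

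Of the 552 windows of 50 bases inside the exons of Hba-a1, 50 (9.06%) were found once in the genome. All 50 of them spanned this 1 base, at position 577 of the joined exons, and they covered 14.16% of the exonic bases. With windows of 35 bases, 35 of 597 (5.86%) were found once. The read length was not given in the sources used here, and windows across exon junctions were not searched. The other windows also matched the locus of Hba-a2, some of them before its annotated start. The authors counted reads aligned to a single gene and left out genes with reads over 50% of their length or less, and Hba-a1 had a row with at least 2028 reads in each library. On these exons, windows of 50 bases found once covered 14.16% of the bases, less than the authors required. Reads from such windows alone would thus not have kept the row on this annotation. How many of its reads Hba-a2 shares was not tested. The values of Hba-a1 below may stand for alpha globin from both genes.

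The beta globin genes lie on the minus strand of chromosome 7, Hbb-b1 at chr7:110975048-110976610 and Hbb-b2 at chr7:110961038-110962510. Their coding sequences of 444 bases also differ at 1 base (C417T). Of their exons, 56.39% of the 50-base windows of Hbb-b1 and 49.1% of those of Hbb-b2 were found once. The capital letter marks the difference in the last 88 coding bases, bases 357 to 444, shown because this pair repeats the pattern of the alpha pair.
Hbb-b1: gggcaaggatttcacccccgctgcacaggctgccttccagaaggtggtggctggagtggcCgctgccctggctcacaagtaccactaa
Hbb-b2: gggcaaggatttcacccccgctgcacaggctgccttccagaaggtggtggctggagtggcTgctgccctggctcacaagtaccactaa

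Alas2, on the plus strand at chrX:146981918-147005181 with 11 exons, and Bpgm, on the plus strand at chr6:34426207-34455613 with 5 exons, had every window of 50 bases found once in the genome. Their counts therefore do not share the uncertainty of Hba-a1.

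**Figure D1:**
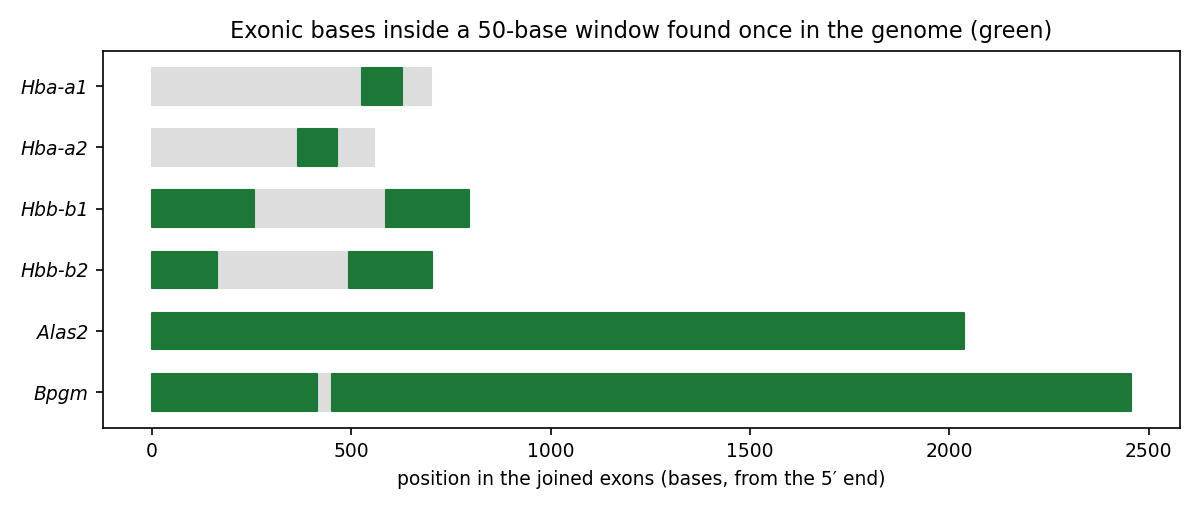
Horizontal bars give the joined exons of each of the 6 genes, in bases from the 5′ end on the horizontal axis, and green marks bases inside a 50-base window found once in the NCBI37/mm9 genome. Green covers 14.16% of Hba-a1, all of Alas2 and 98.49% of Bpgm, whose grey gap is an exon too short to hold such a window.

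The 150 bases before the RefSeq start of the 3 measured genes are shown because their levels, given further on, did not move together. They were taken from RefSeq on GRCm38.p6, which held the promoters of Hba-a1, Hba-a2, Alas2 and Bpgm. The RefSeq start of Hba-a1 was not matched to its GENCODE vM1 start used above. In GENCODE vM1 the first exon of Hba-a2 (chr11:32196489-32196618) matched chr11:32183672-32183801, inside the first exon of Hba-a1 (chr11:32183511-32183801). The bases shown for Hba-a1 may therefore lie in that exon and be counted among its exonic bases above. Capitals mark matches on either strand. GATA factors are known to bind the letters AGATAA, and less strictly the variant TGATAA, Klf factors bind the letters CCACCC in what is called the CACCC box, and the CCAAT box and the letters CATATAA, a form of the TATA box, are general promoter elements.
Hba-a1, chr11:32283522-32283671: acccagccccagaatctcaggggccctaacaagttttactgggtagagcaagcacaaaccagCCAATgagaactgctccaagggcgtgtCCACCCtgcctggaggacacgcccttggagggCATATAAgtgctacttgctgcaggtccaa
Alas2, chrX:150547267-150547416: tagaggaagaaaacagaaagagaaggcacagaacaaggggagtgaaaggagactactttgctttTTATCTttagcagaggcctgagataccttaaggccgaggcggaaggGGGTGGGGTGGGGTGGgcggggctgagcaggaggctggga
Bpgm, chr6:34476206-34476355: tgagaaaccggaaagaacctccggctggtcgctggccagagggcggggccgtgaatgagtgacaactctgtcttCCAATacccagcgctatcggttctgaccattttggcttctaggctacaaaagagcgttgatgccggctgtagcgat

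Hba-a1 had CCAAT 88, CCACCC 61 and CATATAA 29 bases before its start, and TGATAA 183 bases before it, outside the stretch shown. Hba-a2 had the same 4 matches in the same order, each 3 bases farther from its start. Alas2 had AGATAA on the minus strand 86 bases before its start and CCACCC on the minus strand at 40, 35 and 30 bases, where each match overlaps the next by 1 base. Bpgm had CCAAT at 183 and 76 bases on the plus strand and at 217 bases on the minus strand, and none of the other motifs in its 250 bases. Of 32851 promoters of this length, 9.99% held AGATAA, 7.94% TGATAA, 33.85% CCAAT, 28.08% CCACCC and 2.12% CATATAA. Matches of letters are a description and do not show that a factor binds there.

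Hba-a1, which encodes the alpha chain of adult hemoglobin, had 8261 reads in CxWT, 6566 in MH, 4539 in CxH and 2028 in MWT. As RPM with 95% exact Clopper-Pearson intervals, which cover counting error only, this was 246 (240.5 to 251) in CxWT, 176 (172 to 180.0) in MH, 118 (114 to 121) in CxH and 70.1 (67.05 to 73.2) in MWT. In this order, from high to low, no interval overlapped its neighbour. The highest library had 3.51 times the level of the lowest. Among the 11010 genes with at least 100 reads in each library the median of this spread was 1.5, and 280 genes (2.54%) had a wider one than Hba-a1.

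Alas2, whose product is made almost only in red cell precursors, had fewer reads in each library. From high to low it had 365 reads in MH, 289 in CxWT, 286 in CxH and 205 in MWT, or 9.77 (8.79 to 10.8), 8.60 (7.63 to 9.65), 7.43 (6.59 to 8.34) and 7.08 (6.15 to 8.12) RPM. Each interval overlapped its neighbour in this order. The highest library had 1.38 times the lowest, and 64.8% of genes had a wider spread.

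Bpgm, the enzyme of 2,3-bisphosphoglycerate, is also present at lower levels outside red cells. By level, MWT with 1586 reads was followed by CxWT with 1828, MH with 1644 and CxH with 1628, or 54.8 (52.1 to 57.6), 54.4 (51.9 to 56.9), 44.0 (41.9 to 46.2) and 42.3 (40.3 to 44.4) RPM. MWT and CxWT overlapped, MH and CxH overlapped, and the libraries labelled wt lay above both of those labelled Ids-ko. The area markers split the libraries in the same way. The spread was 1.30-fold, narrower than in 76.9% of genes.

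Per kilobase of the longest coding transcript, a scale for setting genes side by side, Hba-a1 stood at 352 RPM per kb in CxWT, 251 in MH, 169 in CxH and 100.2 in MWT. Its ranks among all genes with a transcript length were 22, 55, 125 and 246 in these libraries. On the same scale Alas2 stood between 3.48 and 4.80 and Bpgm between 19.0 and 24.7 RPM per kb. Hba-a1 took between 0.0124% (MWT) and 0.0408% (CxWT) of the reads on genes.

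**Figure D2:**
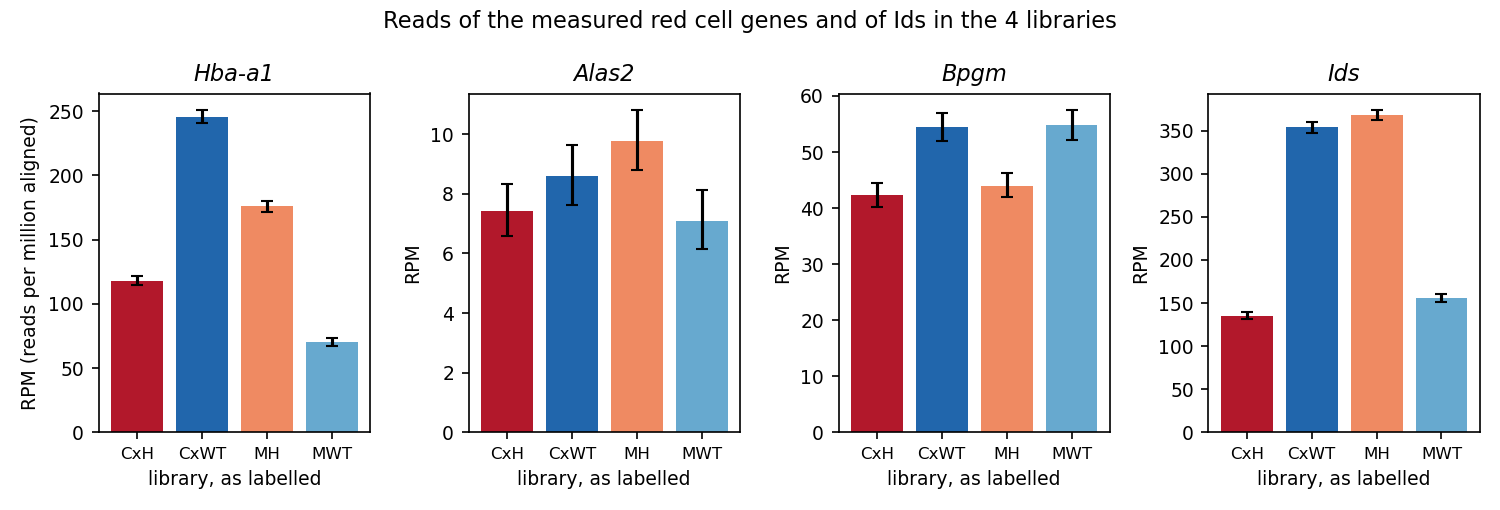
Bars give RPM (vertical axes, each from 0) of Hba-a1, Alas2, Bpgm and Ids in the 4 libraries named by their labels, and error bars are 95% exact Clopper-Pearson intervals of counting error. Hba-a1 ranges from 70.1 to 246 RPM, while Alas2 stays between 7.08 and 9.77 and Bpgm between 42.3 and 54.8.

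Within a library, the ratio of reads of 2 genes does not depend on how libraries are scaled. For each Alas2 read there were 28.6 Hba-a1 reads in CxWT (95% exact interval 25.4 to 32.3), 18.0 in MH (16.2 to 20), 15.9 in CxH (14.1 to 17.9) and 9.89 in MWT (8.57 to 11.5). The ratio thus varied 2.89-fold, CxH and MH overlapped, and the other libraries stood apart from them and from each other. For each Bpgm read there were, in the same order of libraries, 4.52, 3.99, 2.79 and 1.28 Hba-a1 reads, a 3.53-fold range. Alas2 reads per Bpgm read were 0.158, 0.222, 0.176 and 0.129, a 1.72-fold range. The 3 measured red cell genes therefore did not keep to 1 ratio over the libraries.

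Ids, the gene for which Hba-a1 was picked, gave 0.871, 0.695, 0.477 and 0.451 Hba-a1 reads per Ids read, here and in all further runs of 4 values in the order CxH, CxWT, MH, MWT. This ratio ranged 1.93-fold, less than that of Hba-a1 to Alas2 or Bpgm, but Hba-a1 and Ids also differed in order: CxWT was highest for Hba-a1 and MH for Ids, and MWT was lowest for Hba-a1 and CxH for Ids. These are 4 libraries of 1 run, and the likeness was what the choice rested on.

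The study set Ids-ko against wt in each area, and the areas against each other in each genotype, and the other 2 pairs of libraries were added. Over all 12700 genes, reads were tested by a Poisson likelihood ratio, and a gene was called at p under 0.05 with a log2 ratio of 0.7 or more in either direction, the criteria of the authors. For the members, whose reads chose them, a call says only that both criteria were met, and no p-value is given. Ratios are of RPM, each ± is the standard error from counting, and the 6 pairs share their 4 libraries. The median log2 ratio of all genes lay between -0.111 (MH vs. CxWT) and 0.0445 (CxWT vs. MWT).

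In CxH vs. CxWT, Hba-a1 had a log2 ratio of -1.06 ± 0.027 and was the 1 of 3 measured members called, where 20.9% of all genes were called (9.46% higher and 11.5% lower). Alas2 stood at -0.21 ± 0.12 and Bpgm at -0.36 ± 0.049. In MH vs. MWT, Hba-a1 had a log2 ratio of 1.33 ± 0.037 and was again the only member called, where 25.0% of all genes were called (12.3% higher and 12.7% lower). Alas2 stood at 0.46 ± 0.13 and Bpgm at -0.32 ± 0.051. The direction of Hba-a1 was thus opposite in Cx and M as labelled, as was that of Ids (-1.39 ± 0.024 and 1.24 ± 0.025), whose reads in M and the area markers go against these labels. Whether labels were exchanged was not tested. Of all genes, 14 (0.11%) were lower in Cx and higher in M, and 55 (0.433%) were higher in Cx and lower in M. The difference between the 2 log2 ratios, Cx minus M, was -2.39 ± 0.045 for Hba-a1, -0.67 ± 0.17 for Alas2 and -0.05 ± 0.071 for Bpgm. Hba-a1 and Ids were chosen for this pattern, so nothing is read from these counts. If the pools are assumed to vary with a coefficient of 0.4, neither call of Hba-a1 holds.

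Between the areas, Hba-a1 had a log2 ratio of -0.58 ± 0.028 in CxH vs. MH, where no member and 3.5% of all genes were called (2.43% higher and 1.06% lower). In CxWT vs. MWT it had 1.81 ± 0.036, its widest ratio, and was called with 7.54% of all genes (5.43% higher and 2.11% lower). Alas2 stood at -0.40 ± 0.11 and 0.28 ± 0.13 in these comparisons, and Bpgm at -0.06 ± 0.05 and -0.01 ± 0.05. These are the pairs alike in area markers, and in both of them the library with fewer Ids reads, CxH and MWT, had less Hba-a1. Hba-a1 was chosen for going with Ids, so this restates the choice.

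In the pairs that differ in both labels, Hba-a1 had 0.75 ± 0.039 for CxH over MWT, where it and 30.7% of all genes were called (15.6% higher and 15.1% lower). That call was also lost when libraries were scaled by their reads on genes. For MH over CxWT it had -0.48 ± 0.024, where no member and 15.3% of all genes were called (6.41% higher and 8.89% lower). These pairs were alike in Ids, with log2 ratios of -0.20 ± 0.029 and 0.06 ± 0.018. Alas2 stood at 0.07 ± 0.13 and 0.18 ± 0.11. Bpgm stood at -0.37 ± 0.051 and -0.31 ± 0.049. Its ratios thus lay between -0.37 and -0.31 in all 4 pairs of a library labelled Ids-ko with one labelled wt, pairs that share their libraries. Corrected for GC and length, they lay between -0.21 and -0.13. The area markers set the same libraries apart, so the Ids-ko label and the area-marker content cannot be told apart in these pairs.

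**Figure D3:**
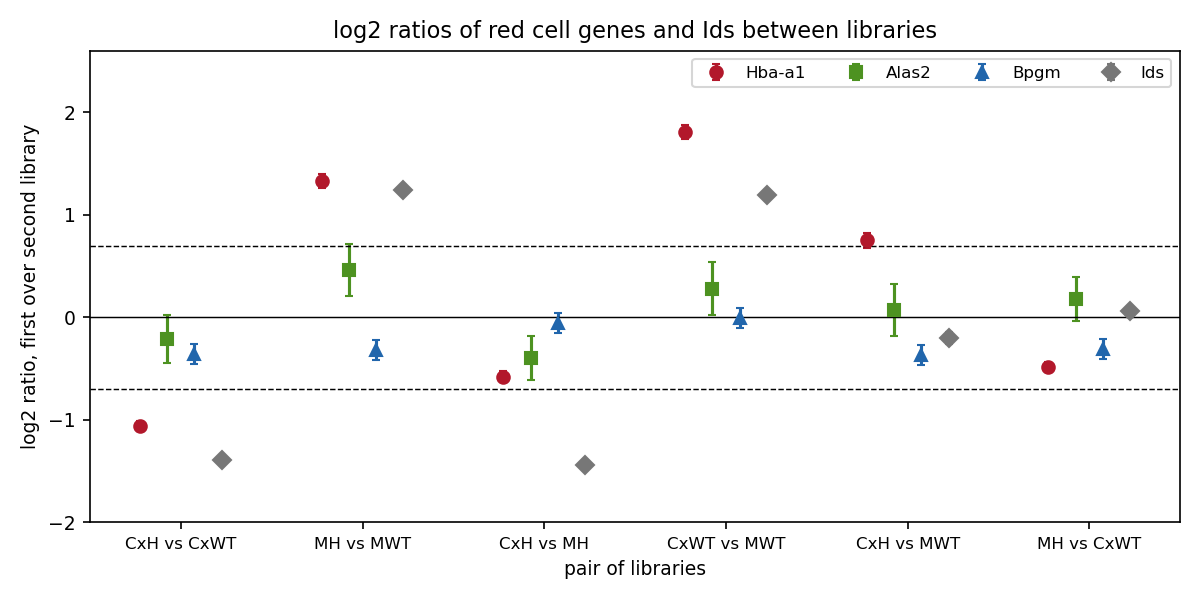
Points give the log2 ratio (vertical axis, first library over second) of Hba-a1, Alas2, Bpgm and Ids in the 6 pairs of libraries, with bars of 95% counting intervals and dashed lines at 0.7 and -0.7. Hba-a1 runs from -1.06 to 1.81, and all ratios of Alas2 and Bpgm lie between the dashed lines.

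GC content moved with these ratios. Hba-a1 is 57.2% GC, higher than 84.5% of genes, Alas2 53.3%, Bpgm 49.7% and Ids 41.4%. Across 10813 genes, which are not independent replicates, the Spearman correlation of GC content with the log2 ratio was 0.461 in CxH vs. CxWT and 0.486 in MH vs. MWT, and between 0.163 (MH vs. CxWT) and 0.685 (CxH vs. MWT) in the other pairs. Once corrected for GC and for the length of the transcript, the log2 ratio of Hba-a1 was -1.30 in CxH vs. CxWT and 1.37 in MH vs. MWT, at least as large in size as uncorrected. It moved from -0.58 to -0.93 in CxH vs. MH, past the threshold of a call, and from 0.75 to 0.44 in CxH vs. MWT, short of it.

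The level of each member, as log2 RPM centred over the 4 libraries, was set beside that of the 11009 other genes with at least 100 reads in each library, by the root mean square difference. Hba-a1 stood at -0.22, 0.84, 0.35 and -0.97. The most alike were Slc16a11 (a transporter of the monocarboxylate family), at a difference of 0.211, Chchd2 (a mitochondrial protein) at 0.23 and Clasrp at 0.255, followed by Vwa5b2, Kdm6b, Tsfm, Pura, Irs2, Cystm1 and Nob1, the last at 0.308. Ids took place 83 (0.391), Alas2 place 1078 (0.545) and Bpgm place 5691 (0.71). No gene of the red cell lists was among the 10 closest to Hba-a1.

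Alas2 stood at -0.13, 0.08, 0.26 and -0.20. Its closest genes were Son (0.0173), Ciart, Ice1, Tasp1, Baz2a and Rbm33, and place 8 was Ppox (0.036), the enzyme of the step before the last in heme synthesis, then Pias1 and Slc20a1 (0.0391). Ppox had 362, 370, 438 and 253 reads. Bpgm stood at -0.20, 0.16, -0.14 and 0.18, and its closest genes were Rnf214 (0.0041), Ppfia1, Ica1l, Dctn4, Zfp429, Gask1a, Irgm2, Gja1, Dnajc8 and Sc5d (0.0223). Profiles as narrow as those of Alas2 and Bpgm have many close neighbours, and likeness over 4 libraries is a description only.

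**Figure D4:**
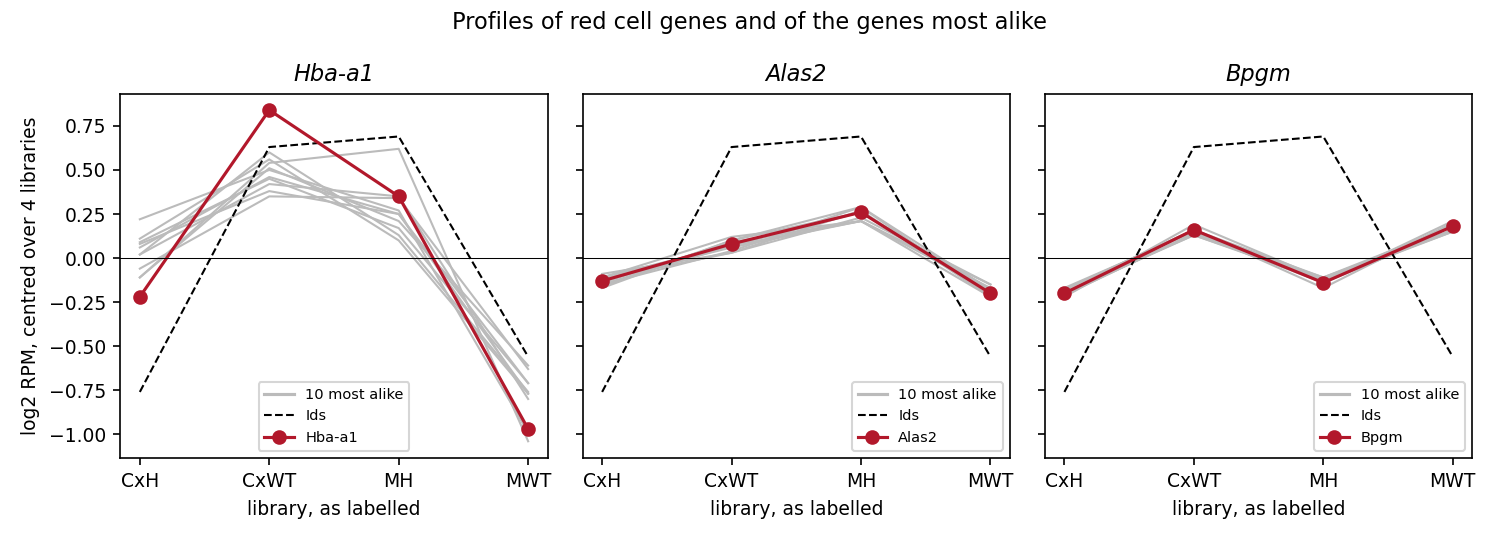
Lines give log2 RPM centred over the 4 libraries (vertical axis) for Hba-a1, Alas2 and Bpgm (red), their 10 most alike genes (grey) and Ids (dashed). Hba-a1 runs from -0.97 in MWT to 0.84 in CxWT, while Alas2 and Bpgm stay within 0.26 of their means.

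The other globins did not follow Hba-a1 in M. Counts of called genes in the lists that follow stand beside the shares of all genes, which in Cx were 9.46% called higher and 11.5% lower, and in M 12.3% and 12.7%. Besides Hba-a1, 3 of the 15 listed globin genes were measured: Ngb (neuroglobin, of neurons), Cygb (cytoglobin) and Hbq1a (theta globin). Ngb had 231, 1285, 269 and 758 reads, with log2 ratios of -2.67 ± 0.10 in Cx (CxH vs. CxWT) and -1.86 ± 0.10 in M (MH vs. MWT). Cygb had 1624, 2818, 1294 and 1698 reads and -0.99 ± 0.045 and -0.76 ± 0.053. Both were called lower in both areas, where Hba-a1 was higher in M. Their levels were lower in CxH and MH than in CxWT and MWT, the split of the area markers, whose part was not tested. Hbq1a had 16 reads in each library. The median of the 4 measured globins was -1.03 in Cx and -0.56 in M.

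All 15 genes of heme synthesis were measured, with median log2 ratios of -0.21 (Cx) and -0.02 (M), where that of all genes was -0.0931 and -0.0656. None was called higher in either area. Flvcr1, a heme exporter, was called lower in both (-1.12 ± 0.11 and -1.15 ± 0.10), and Abcb10, a mitochondrial transporter, in M (-0.74 ± 0.075), a call that was lost with TMM (-0.69) and DESeq2 size factors (-0.68). Fech, the enzyme that puts iron into heme, was not called (-0.13 ± 0.049 and -0.14 ± 0.051), nor was Alas1, the form of the first enzyme found in all tissues (0.43 ± 0.059 and 0.63 ± 0.067), nor the transporter Slc25a39 (-0.14 ± 0.06 and -0.26 ± 0.073). With the GC and length correction Fech turned to 0.10 in both areas, and Slc25a39 stood at -0.34 and -0.58.

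Of 23 genes of the red cell membrane and skeleton, 15 were measured, 5 of which were called higher and 2 lower in Cx, and 5 higher and 4 lower in M. Of all genes 9.46% and 11.5% were called higher and lower in Cx, and 12.3% and 12.7% in M, so the 2 of 15 lower in Cx are near that share. Most are also used by neurons. Add1 (alpha adducin) had log2 ratios of 0.31 ± 0.018 and 0.56 ± 0.02, Dmtn (dematin) 0.87 ± 0.021 and 1.21 ± 0.026, and Sptb (beta spectrin) 0.41 ± 0.028 and 0.49 ± 0.034, the last at 0.24 and -0.07 with the GC and length correction. Dmtn had 376, 205, 336 and 145 RPM, where the cortical neuron markers summed to 4875, 1033, 4374 and 861. The part of cell composition in the calls of this list was not tested. Gypc (glycophorin C) was the 1 gene of this list called in opposite directions, and against Hba-a1: it had 84, 37, 37 and 49 reads, with 0.99 ± 0.28 in Cx and -0.77 ± 0.31 in M, the latter short of a call (-0.64) with that correction. Icam4, a red cell adhesion molecule, had 27, 17, 31 and 9 reads, with 0.47 ± 0.45 in Cx (0.17 corrected) and 1.42 ± 0.55 in M, where it was called higher, as was Hba-a1. The other 8, among them Slc4a1 (band 3), Epb42 and Rhag, were not analysed here.

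Of 24 genes of reticulocytes and late red cell precursors, 18 were measured, and 2 were called higher and none lower in Cx, and 1 higher and 3 lower in M. The 2 higher in Cx and the 3 lower in M are near the shares of all genes, 9.46% and 12.7%. Car2 (carbonic anhydrase 2, also of oligodendrocytes) stood at -0.19 ± 0.029 and, called lower, -0.79 ± 0.032, a call lost (-0.54) with the GC and length correction. Bnip3l, which clears mitochondria from reticulocytes, stood at -0.39 ± 0.036 and -0.41 ± 0.036, and Ube2o, which clears ribosomes, at -0.23 ± 0.037 and 0.58 ± 0.043. With that correction Bnip3l stood at 0.03 and -0.08, and Ube2o at -0.42 and 0.05. Of 17 genes around Bpgm, in 2,3-bisphosphoglycerate metabolism and glycolysis, 13 were measured, with 1 called higher in Cx, 1 higher and 1 lower in M, and medians of 0.17 and 0.10. Aldoa stood at 0.21 ± 0.01 and 0.59 ± 0.012, Eno1 at -0.04 ± 0.017 and 0.62 ± 0.019, and Gpi1 at 0.17 ± 0.019 and 0.16 ± 0.021. Corrected in the same way, Aldoa stood at 0.08 and 0.54, Eno1 at -0.18 and 0.41, and Gpi1 at 0.04 and 0.08.

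Of 17 red cell transcription factors and erythropoietin genes, 10 were measured, with 3 called higher and 1 lower in Cx and 5 higher and 1 lower in M. Tal1, which is also made by some midbrain neurons, was called lower in both (-1.99 ± 0.17 and -2.62 ± 0.20), and Zfpm1, the partner of GATA factors, higher in both (1.20 ± 0.064 and 2.16 ± 0.10). Epor, the erythropoietin receptor, was called higher in both (1.21 ± 0.16 and 0.89 ± 0.18). Bcl11a, a repressor of fetal globin that cortical neurons also make, was called higher in both (1.70 ± 0.069 and 1.44 ± 0.075). It had 54.4, 16.7, 44.9 and 16.5 RPM, where the cortical neuron markers summed to 4875, 1033, 4374 and 861, and their part in the result was not tested. Ldb1, a cofactor in complexes with GATA factors, had 0.60 ± 0.043 and, called higher, 0.78 ± 0.051. Zbtb7a, which also represses fetal globin, had 0.09 ± 0.039 and, called higher, 1.01 ± 0.051. Jak2, the kinase that carries the signal of Epor, had -0.42 ± 0.055 and -0.01 ± 0.053 (-0.13 and 0.19 corrected for GC and length). With the GC and length correction Epor (0.52), Ldb1 (0.36) and Zbtb7a (0.53) were no longer called in M. Gata1, Klf1, Nfe2 and Gfi1b, the factors most particular to red cell precursors, were not analysed here.

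Of 18 genes of hemoglobin scavenging, heme breakdown and iron, 12 were measured, with 1 called higher in Cx and 3 lower in M, and medians of 0.07 and -0.37. Ferritin heavy chain (Fth1) stood at 0.52 ± 0.012 and, called lower, -0.83 ± 0.012, and ferritin light chain (Ftl1) at 0.91 ± 0.022, called higher, and -0.08 ± 0.025. Neither call held with the GC and length correction, which gave -0.50 for Fth1 in M and 0.67 for Ftl1 in Cx. Fth1 had 1038, 726, 653 and 1164 RPM and Ftl1 341, 182, 195 and 206. The activated microglia genes summed to 584, 248, 255 and 521 RPM, and their part in the ferritin levels was not tested. Trf (transferrin, made by oligodendrocytes) stood at -0.37 ± 0.024 and, called lower, -1.27 ± 0.027. The 13 oligodendrocyte markers moved with it, 10 of them called lower in Cx and 7 in M, with medians of -0.87 and -0.71, and their part in the result was not tested. Lrp1, a receptor of heme bound to hemopexin, stood at 0.09 ± 0.019 and 0.27 ± 0.023, and at -0.08 and -0.38 with that correction.

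The neutrophil genes went the other way. The 5 measured of 15 neutrophil genes summed to 26.3, 11.9, 11.1 and 23.4 RPM, where Hba-a1 had 118, 246, 176 and 70.1. All 5 were called higher in Cx and 3 lower in M, and their median log2 ratios were 0.98 and -1.92. S100a8 had 85, 45, 22 and 69 reads, S100a9 45, 17, 16 and 47, and Lcn2, which glia also make, 236, 41, 31 and 253. Csf3r, a receptor of neutrophils with the most reads of the list, had 549, 253, 313 and 270 reads, and Ngp 97, 43, 32 and 39, and neither was called in M (-0.16 ± 0.12 and -0.65 ± 0.34). Of 14 platelet genes 3 were measured, with 15.4, 5.77, 8.83 and 7.08 RPM in sum, of which 2 were called higher in Cx, and 1 higher and 1 lower in M. Gp1bb, a platelet receptor subunit with the most reads of them, had 403, 109, 223 and 64 reads and was called higher in both (1.69 ± 0.16 and 1.43 ± 0.20), in M the direction of Hba-a1 and in Cx against it. Like the cortical neuron markers, Gp1bb was higher in CxH and MH, and their part in its level was not tested. Itgb3, an integrin subunit, had 160, 70, 96 and 99 reads, and Ppbp, a platelet chemokine, 29, 15, 11 and 42, called lower in M (-2.30 ± 0.49). None of the 14 lymphocyte genes was measured. CxWT and MH, with more Hba-a1 than the other libraries, had a lower sum of the neutrophil genes.

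The 20 brain endothelium genes summed to 1408, 1038, 1144 and 1184 RPM, with 4 called higher in Cx (9.46% of all genes) and 1 higher and 2 lower in M (12.3% and 12.7%). The counts in M were thus not above the shares of all genes. Their sum was thus highest in CxH and lowest in CxWT, the library with most Hba-a1. Cldn5, a tight junction gene of endothelium, had log2 ratios of 0.72 ± 0.08, called higher but short of it (0.49) with the GC and length correction, and 0.56 ± 0.10, and Hba-a1 reads per Cldn5 read were 4.84, 16.7, 11.0 and 6.48. The most read of the list, Bsg, Slc2a1 and Slco1c1, were not called in either area, with log2 ratios between -0.14 (Bsg in M) and 0.50 (Slco1c1 in M). The 13 measured pericyte and smooth muscle genes summed to 231, 183, 199.8 and 169 RPM, with 1 called higher in each area, and the most read of them, Vtn, Rgs5 and Pdgfrb, were not called. The 14 measured genes of activated microglia summed to 584, 248, 255 and 521 RPM, with 12 called higher in Cx and 9 lower in M, opposite to Hba-a1. C1qa, a complement subunit with the most reads of them, stood at 1.42 ± 0.037 and -1.02 ± 0.038. Among them Lyz2 had 2912, 667, 760 and 2239 reads, so Hba-a1 reads per Lyz2 read ran from 0.906 in MWT to 12.4 in CxWT. The part of cell composition in the levels of Hba-a1 was not tested.

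**Figure D5:**
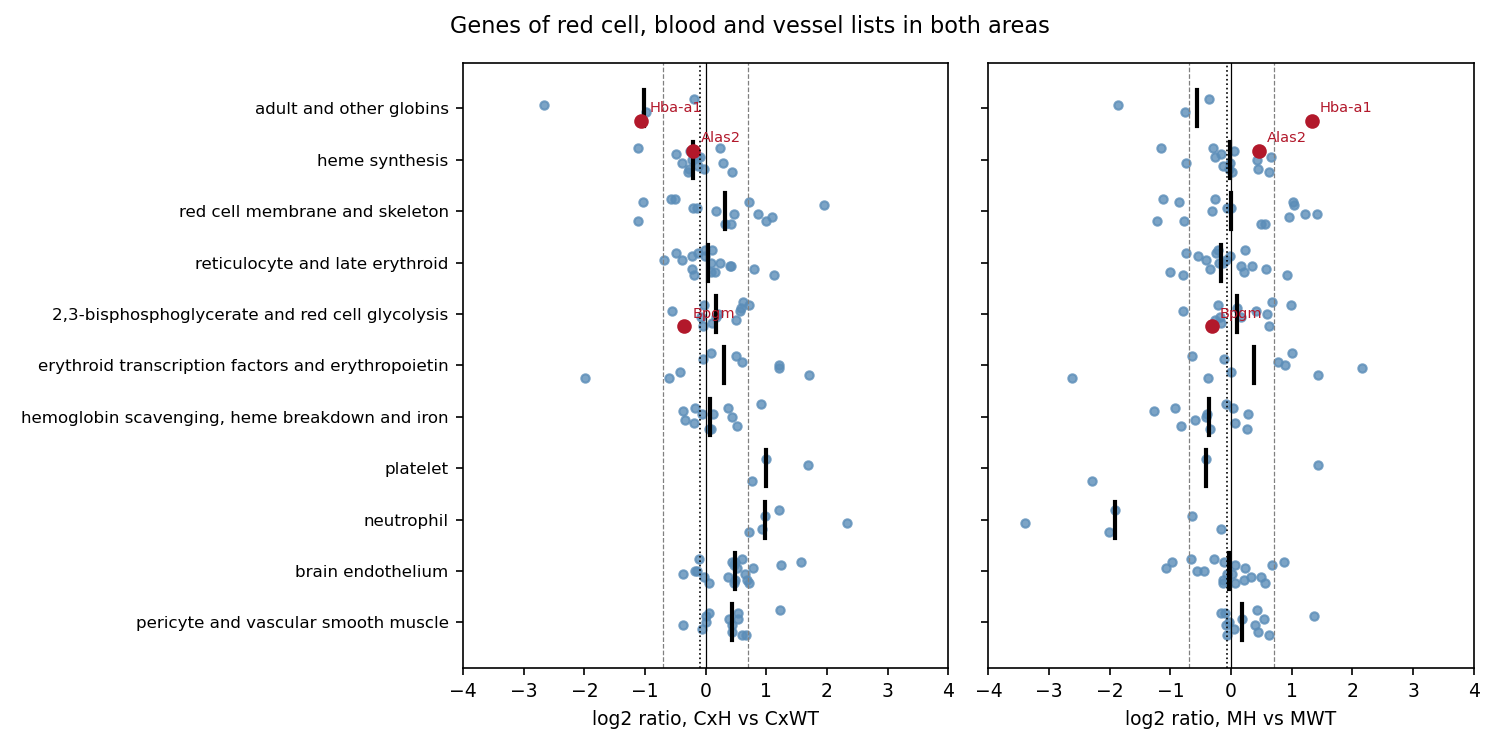
Each point is 1 measured gene of a list (rows), by its log2 ratio in CxH vs. CxWT (left) and MH vs. MWT (right). Black bars are list medians, dashed lines mark 0.7 and -0.7, the dotted line the median of all genes, and red points Hba-a1, Alas2 and Bpgm. Hba-a1 lies at -1.06 on the left and 1.33 on the right, while the neutrophil medians lie at 0.98 and -1.92.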

How the data were processed

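Reads were sequenced on a SOLiD 3 Plus instrument from polyA RNA. The authors aligned them with PASS 2.10 to NCBI37/mm9 (best hit, at most 2 mismatches, no gap) and deposited raw counts, the reads aligned to a single gene, leaving out genes whose reads covered 50% of the length or less. The gene annotation they used was not given in the sources used here. Symbols were matched by Entrez identifier for 12690 of the 12700 genes. RPM are counts over the aligned reads of each library. A likelihood ratio test on Poisson counts was run for each gene, and calls were made at p under 0.05 and 0.7 or more in log2 ratio, after the DEGseq 1.18 criteria of the authors, and the step was tested on simulated data. With 1 library per condition the test measures counting error only.

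The members and gene lists were chosen with earlier results of these data known. Named were the members, Ids, the most read and oppositely called genes of the lists, and the 10 genes most like each member; other list genes were named after their values were seen. Most list genes entered the counts and sums without being named, and some of them are not reported here. Alternatives were other scalings (edgeR 4.0.16, DESeq2 1.42.0), filters, thresholds, added counts, assumed variation, and a correction for GC content and length. Other tools were BLAST 2.17.0, Python 3.11.15, scipy 1.17.1 and R 4.3.3.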

Additional observations from a re-analysis of the deposited data

Results flagged for a closer look

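The log2 ratio of Hba-a1 was -1.06 in CxH vs. CxWT and 1.33 in MH vs. MWT, opposite directions in the 2 areas as labelled. The summed area markers and Ids go against these labels: cortical markers were at 4875 RPM in CxH and 4374 in MH, against 1033 in CxWT and 861 in MWT, and Ids at 368 in MH against 155 in MWT. In the pairs alike in area markers, CxH vs. MH (-0.58) and CxWT vs. MWT (1.81), Hba-a1 was lower in the library with fewer Ids reads. Hba-a1 was picked because it went with Ids, so this restates the choice. Whether the labels were exchanged was not tested. With 1 library per condition the difference between the areas was not tested, and Hba-a1 was picked for this pattern.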

How the results depend on the processing

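No paired analysis was run, although by label the Cx and M libraries of a genotype came from the same mice. Each condition has 1 library, so no replicate could be left out. The number of measured red cell genes called was 1 in CxH vs. CxWT and MH vs. MWT, and in both it was 0 when a biological variation (coefficient) of 0.4 was assumed. It was 0 in CxH vs. MH and became 1 with the correction for GC content and length. In CxH vs. MWT it was 1 and became 0 with column totals, a log2 threshold of 1, an assumed variation of 0.2 or 0.4, or the GC correction. In CxWT vs. MWT (1) and MH vs. CxWT (0) it was unchanged under the 10 alternatives run. The log2 ratio of Hba-a1 ranged from -1.30 to -0.97 (Cx) and 1.27 to 1.39 (M), and that of Bpgm changed sign in CxWT vs. MWT (-0.10 to 0.02), as did that of Alas2 in CxH vs. MWT (-0.04 to 0.11), neither of them called. In Cx or M, uncalled ratios of Fech, Bnip3l, Sptb, Zbtb7a, Lrp1, Jak2, Rgs5 and Vwf changed sign with the GC and length correction, and those of Eno1 and Slc2a1 with TMM. Over all genes, calls in CxH vs. CxWT and MH vs. MWT fell from 2658 and 3170 to 1401 and 1642 with a log2 threshold of 1, and to 420 and 429 with an assumed variation of 0.4. In CxH vs. MH, CxWT vs. MWT, CxH vs. MWT and MH vs. CxWT, the 444, 958, 3895 and 1943 calls became 143, 295, 1961 and 1064 with that threshold and 13, 20, 520 and 345 with that variation. With a variation of 0.2 the first pair of these numbers became 191 and 487, and with the GC correction the first 3 became 284, 370 and 1973. Of 720 log2 ratios recomputed for the named genes and for most read markers, 219 moved beyond their counting interval and 0 called values changed sign.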
